A study of Mus musculus with 38 samples.

Results

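The nuclear genes for the subunits of mitochondrial complex I were followed through muscle injury, ageing and vitamin treatment in bulk gastrocnemius muscle of male C57BL/6JRj mice. They were taken from the table of raw counts by their symbol, as protein-coding genes whose GENCODE M21 name starts with Nduf, then 1 of the letters a, b, c, s or v and a number, so that the assembly factors named Ndufaf were left out. This gave 37 of the 27554 genes in the table. Another 4 annotated names fitted the pattern but belonged to 3 processed pseudogenes (Ndufs6b, Ndufb4c, Ndufa11b) and a non-coding gene (Ndufb1-ps), and none of these was in the table.

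RNA was measured by QuantSeq, a 3′ tag method in which each read comes from the end of a polyadenylated transcript. Fibres were destroyed in 1 leg by an injection of the venom component cardiotoxin into the tibialis anterior and the gastrocnemius, and both gastrocnemius muscles were collected 5 days later. Young (12 to 13 weeks) and aged (23 to 25 months) wild-type mice received by daily gavage either vehicle or NAM/PN, that is nicotinamide at 200 mg/kg with pyridoxine at 4 mg/kg. The 38 libraries came from 23 mice and formed 8 groups, with 6 contralateral and 5 injured muscles from young mice on vehicle, 5 and 3 from young mice on NAM/PN, 6 and 3 from aged mice on vehicle, and 6 and 4 from aged mice on NAM/PN. The contralateral muscle is the uninjured reference, but it belongs to an injured animal, and the treated young and the treated aged mice carry different compound names in their descriptions, so a comparison of treated mice across ages also crosses those names.

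Complex I is the first enzyme of the respiratory chain. It oxidises NADH in the mitochondrial matrix, passes the electrons through a chain of iron-sulphur clusters to ubiquinone and pumps protons across the inner membrane. The enzyme has the shape of an L, with a matrix arm that carries the redox chemistry and a membrane arm that carries the pumps. Its catalytic core is built from subunits of both genomes, namely nuclear ones in the matrix arm and the mitochondrially encoded ND subunits in the membrane arm, and many accessory subunits surround the core. Muscle fibres hold dense mitochondria, and cardiotoxin injury replaces the fibres by inflammatory cells and new, immature fibres.

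By their place in the enzyme, the 37 genes were 7 core subunits, with Ndufv1 and Ndufs7 among them, 9 accessory subunits of the matrix arm, 9 of the proximal membrane arm, 10 of the distal membrane arm (all named Ndufb), and the pair Ndufa4 and Ndufa4l2. Ndufa4 is now regarded as a subunit of complex IV, and Ndufa4l2 is its paralogue, known to be induced by hypoxia. All 37 were among the 12610 genes that passed the filter on low counts, so none was lost before testing. They took 0.586% to 0.99% of the counts of a library, that is 28280 to 65605 reads.

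Total counts per library ranged from 4032414 to 7507191 and mitochondrial transcripts took 6.67% to 29.6% of them. The 25 mature myofibre genes summed to 218891 to 409908 CPM (counts scaled by library size with TMM factors) in contralateral muscle and to 55858 to 152847 CPM in injured muscle, and the 7 genes of regenerating fibres to 20.7 to 636 CPM and 1637 to 5868 CPM. None of the 25 myofibre genes was at 0 in any library. The 12 macrophage genes summed to 103 to 1566 CPM in contralateral and to 1439 to 3303 CPM in injured muscle. Of the contralateral libraries, aged vehicle 6 held the highest macrophage sum, above young NAM/PN injured muscle 3 at 1439 CPM, and the lowest myofibre sum, and aged vehicle 3 followed with 735 CPM of macrophage genes and the highest sum of regenerating fibre genes. After injury 27 nuclear complex I genes were lower in aged vehicle mice with both libraries, 27 without contralateral muscle 3 and 26 without contralateral muscle 6. Hepatocyte genes, foreign to muscle, reached 1330 CPM in young vehicle contralateral muscle 3 and 579 CPM in muscle 1 of that group. They summed to 183 CPM in young NAM/PN injured muscle 1 and to at most 19 CPM in the other libraries. Leaving out any 1 young vehicle library kept the count of nuclear complex I genes lower after injury between 32 and 34. Muscles 1 and 3 were not left out together.

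The libraries also differed along an axis within the groups. The first principal component of the deviations from the group means took 31.7% of the variance over 12573 genes outside the family, against 9.71% for the second. An axis was estimated from the same genes as a surrogate variable, with the groups in its model. Its R2 with the group labels was 0.0634, a value that this model keeps low in part. The group means ranged from -0.53 to 0.30 SD. On this axis 5 libraries lay more than 1 SD above the mean. These were aged NAM/PN contralateral muscle 4 (3.01 SD), aged vehicle contralateral muscles 4 (2.55 SD) and 1 (1.73 SD), aged NAM/PN injured muscle 4 (1.5 SD) and young vehicle injured muscle 4 (1.41 SD). On the other side 3 libraries lay more than 1 SD below the mean, aged vehicle contralateral muscles 5 (-2.03 SD) and 6 (-1.13 SD) and young NAM/PN contralateral muscle 3 (-1.38 SD). Counts of changed genes are therefore given below also with the axis as a covariate and without the 5 high libraries, and for injury without the 3 low ones, all chosen after seeing the data.

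Nuclear respiratory genes are known targets of NRF1, GABPA, YY1 and ERRα, factors that act in mitochondrial biogenesis, and the promoters of the family were therefore searched for their motifs. RefSeq promoters on GRCm38.p6 were found for 32 of the 37 genes. In the 250 bases before the start, the NRF1 motif (GCGCA, any base, GCGC) was found on either strand in 6 of the 32 genes (18.8%), against 4.23% of 27025 genes searched alike. The GABPA motif CCGGAAG was in 3 genes (Ndufb6, Ndufb7, Ndufs3; 9.38%) against 7.83% of all genes. The YY1 motif AAGATGGCG and the ERR motif TCAAGGTCA were in 0 of the 32 and in 0.71% and 0.422% of all genes. The median GC content of these windows was 57.6% in the family and 52.4% over all promoters. The stretches with the NRF1 letters are shown because they are what the promoters of 6 members share, with the match in capitals and each sequence given 5′ to 3′ on the strand of its gene.
Ndufb4, chr16:37654540-37654569 (-): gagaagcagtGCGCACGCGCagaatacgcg
Ndufb4, chr16:37654428-37654457 (-): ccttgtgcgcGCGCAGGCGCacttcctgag
Ndufb4, chr16:37654371-37654400 (-): cctcatatccGCGCAGGCGCagatgtgcgc
Ndufa5, chr6:24527697-24527726 (-): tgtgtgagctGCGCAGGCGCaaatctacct
Ndufa8, chr2:36049349-36049378 (-): ctagagcagtGCGCTTGCGCgtcgctggag
Ndufa11, chr17:56717692-56717721 (+): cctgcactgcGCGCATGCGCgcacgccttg
Ndufs5, chr4:123718265-123718294 (-): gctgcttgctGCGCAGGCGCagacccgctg
Ndufs6, chr13:73328483-73328508 (-): cgactgctgtGCGCCTGCGCcggcac

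Ndufb4 held 3 matches, at 191, 79 and 22 bases before the start. In Ndufa8 and Ndufs6 the match lay on the opposite strand. A match is a run of letters and not evidence of binding.

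The first comparison asked how injury changed these transcripts in each age and treatment. Nuclear complex I transcripts fell in all 4 comparisons, and in none did a member rise. In young vehicle mice the 37 genes summed to 11120, 11871 and 13238 CPM (lowest, median and highest of 6) in contralateral muscle and to 4565, 5344, 3720, 4822 and 4838 CPM in injured muscles 1 to 5. In aged vehicle mice the sum was 8534, 11352 and 12554 CPM (lowest, median and highest of 6) in contralateral and 7707, 5506 and 5939 CPM in injured muscles 1 to 3. In young NAM/PN mice it was 10190, 8759, 8550, 11491 and 12013 CPM in contralateral muscles 1 to 5 and 4918, 5569 and 6109 CPM in injured muscles 1 to 3. In aged NAM/PN mice it was 9859, 11409 and 11963 CPM (lowest, median and highest of 6) and 3978, 4914, 4120 and 4916 CPM. Every injured muscle lay below every contralateral muscle of the series. In bulk tissue fewer muscle fibres and less of these transcripts per fibre cannot be told apart.

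**Figure D1:**
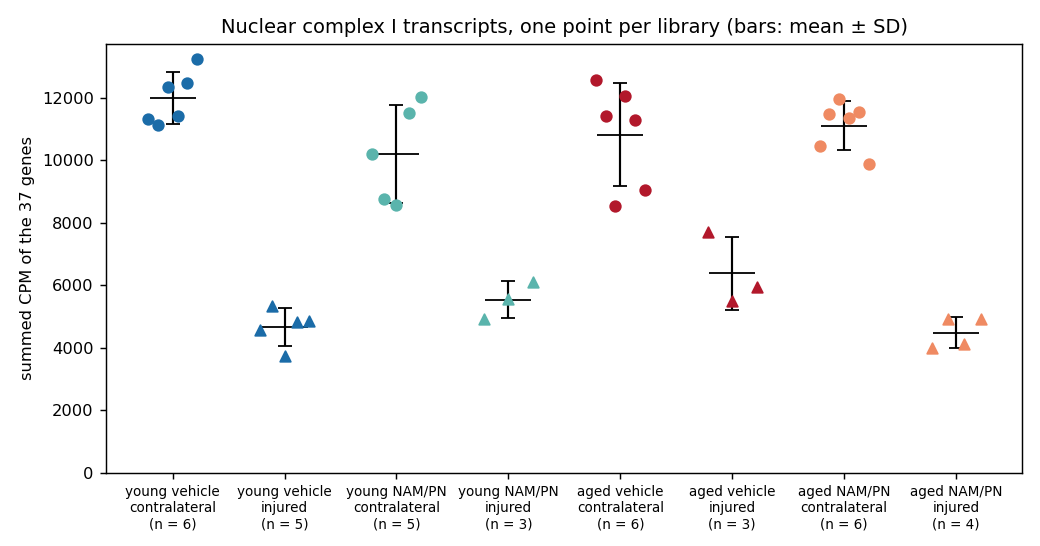
Summed CPM of the 37 nuclear complex I genes (vertical axis) in each library of the 8 groups (circles, contralateral; triangles, injured), with the mean ± SD of each group. The injured libraries lie between 3720 and 7707 CPM and the contralateral libraries between 8534 and 13238 CPM, and the injured aged vehicle libraries lie above the injured aged NAM/PN libraries.

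Within the 15 mice that gave both legs, the injured muscle held a median of 43.5% of the summed CPM of its own contralateral muscle, with a range of 28.1% to 65.1%. The share was 28.1% to 43.5% in 5 young vehicle mice, 53.2% to 65.1% in 3 young NAM/PN mice, 48.3% to 64% in 3 aged vehicle mice and 35% to 47.1% in 4 aged NAM/PN mice. The lowest aged vehicle mouse lay above the highest aged NAM/PN mouse, and all young NAM/PN mice lay above all young vehicle mice. Contralateral sums in these pairs were 8759, 8550 and 11491 CPM in young NAM/PN mice and 11120 to 13238 CPM in young vehicle mice. Their injured sums overlapped, at 4918 to 6109 CPM and 3720 to 5344 CPM. The share in young mice thus also reflects the contralateral level. Single members did not all follow the sum. In the injured leg 24 of the 37 members were lower in the aged vehicle mouse of contralateral muscle 4 and injured muscle 1, 30 in the aged NAM/PN mouse of contralateral muscle 4 and injured muscle 1, and 36 or 37 in each other mouse. Both of these contralateral libraries are among those high on the axis. These values describe few mice and were not tested.

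In young vehicle mice 33 of the 37 genes were lower after injury at an adjusted p under 0.05 by edgeR, against 26.2% of all genes tested. The median log2 fold change of the 37 was -1.33, or 39.7% of the contralateral level, against a median of 0.05 over all genes. The counts were 27 lower in aged vehicle mice (17.5% of all genes, family median -0.66), 27 in young NAM/PN mice (18.1%, median -0.81) and 33 in aged NAM/PN mice (26.1%, median -1.21). In each comparison all 37 estimates were below 0 and 0 genes were higher, while 29.3%, 20.8%, 22.4% and 29.2% of all genes were higher. Altogether 24 genes were lower in all 4 comparisons, 5 in 3, 4 in 2, 1 in 1 and 3 in none.

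The groups of libraries did not overlap for 31 of the 37 genes in young vehicle mice (18% of all genes in that direction), 13 in aged vehicle mice (11.9%), 28 in young NAM/PN mice (19.3%) and 28 in aged NAM/PN mice (16.2%). With the axis as a covariate 35, 30, 31 and 35 members were lower in young vehicle, aged vehicle, young NAM/PN and aged NAM/PN mice. Of all 12610 genes 3878, 2756, 2954 and 3795 were lower in that fit. Without the 5 high libraries the members lower were 34, 29, 33 and 34, against 3586, 2501, 2840 and 3477 of all genes. Without the 3 low ones they were 33, 25, 28 and 33, against 3226, 2264, 2168 and 3396. The aged vehicle count rested on few injured muscles, and it was 14 without injured muscle 2 and 13 without injured muscle 3. With the mouse as a block, which uses 3 pairs in that group, the young NAM/PN count was 17.

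All 7 core subunits were lower in young vehicle and in aged NAM/PN mice, 6 of 7 in aged vehicle mice (all but Ndufs8) and 6 of 7 in young NAM/PN mice (all but Ndufs3). Ndufs7, which carries the last iron-sulphur cluster before ubiquinone, fell most among them in all comparisons but that of aged vehicle mice, where Ndufs3 had the lowest estimate (-1.52 ± 0.43). It stood at 321, 377 and 436 CPM (lowest, median and highest of 6) in young vehicle contralateral muscle and at 93.9, 124, 81.8, 133 and 108 CPM in injured muscles 1 to 5. The groups were far apart, with a log2 fold change of -1.78 ± 0.17 (SE, adjusted p = 4.51e-10). The change of Ndufs7 was -1.01 ± 0.20 in aged vehicle mice (adjusted p = 0.000188), -1.19 ± 0.21 in young NAM/PN mice (adjusted p = 2.88e-05) and -1.70 ± 0.19 in aged NAM/PN mice (adjusted p = 4.43e-09).

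Ndufs1, the large subunit with several iron-sulphur clusters, stood at 253, 275 and 310 CPM (lowest, median and highest of 6) in young vehicle contralateral muscle and at 87.9 to 129 CPM in the 5 injured muscles, a change of -1.36 ± 0.15. With NAM/PN its change was -0.65 ± 0.18 in young and -1.08 ± 0.17 in aged mice. In aged vehicle mice the injured muscles stood at 206, 138 and 134 CPM against 161 to 251 CPM. Injured muscle 1 thus lay among the contralateral muscles, and the change of Ndufs1 was -0.44 ± 0.18 (adjusted p = 0.0498). That is at the threshold, and Ndufs1 was not called there by DESeq2 (adjusted p = 0.0601) or without injured muscle 2 (0.221) or 3 (0.237).

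Ndufv1, the flavoprotein subunit that takes the electrons from NADH, changed by -1.34 ± 0.25 in young vehicle mice, -0.95 ± 0.29 in aged vehicle mice, -0.78 ± 0.30 in young NAM/PN mice and -1.28 ± 0.27 in aged NAM/PN mice. Its partner Ndufv2 changed by -1.32 ± 0.20, -0.81 ± 0.24, -0.72 ± 0.25 and -1.20 ± 0.22 in the same order. Ndufs8, a ferredoxin-like subunit, changed by -1.17 ± 0.16 in young vehicle mice, and in aged vehicle mice it was not called lower (-0.35 ± 0.19, adjusted p = 0.146), while young and aged NAM/PN mice had -0.63 ± 0.20 and -0.78 ± 0.17. Ndufs3 changed by -1.09 ± 0.35 in young vehicle mice and by -1.52 ± 0.43 in aged vehicle mice, with -0.78 ± 0.42 (adjusted p = 0.135) and -1.51 ± 0.38 in young and aged NAM/PN mice. Ndufs3 is the least certain core subunit, since 53% of the 50-base windows in the last 300 bases of its transcripts also occur in another annotated transcript, Gm12251.

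**Figure D2:**
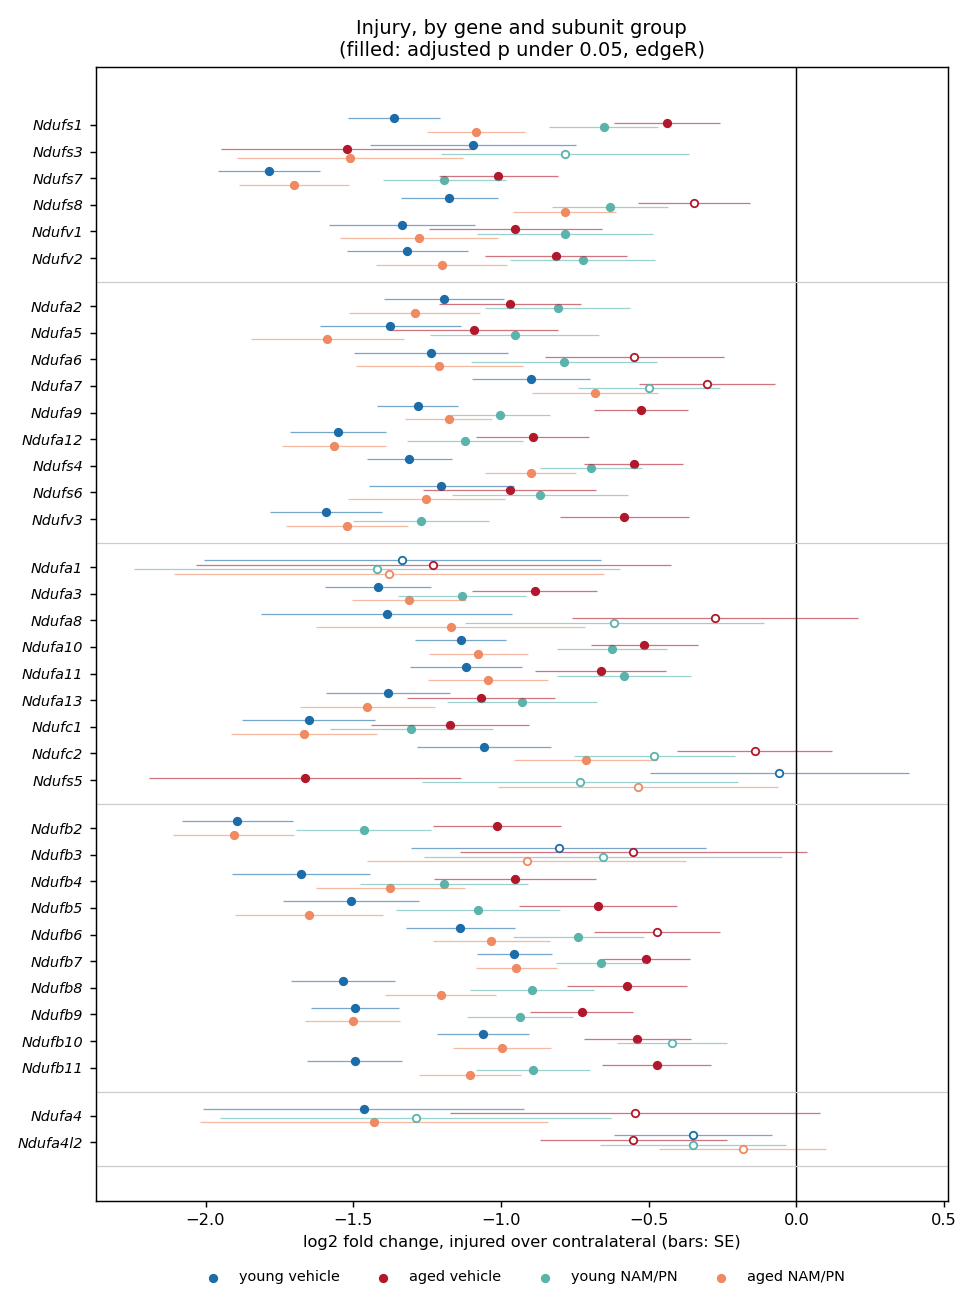
Log2 fold change of 36 genes between injured and contralateral muscle (horizontal axis, bars are SE) in young vehicle, aged vehicle, young NAM/PN and aged NAM/PN mice, with the genes ordered by subunit group from the core at the top to the Ndufa4 pair at the bottom. Filled points passed an adjusted p under 0.05, and every estimate lies below 0, from -1.91 (Ndufb2, aged NAM/PN) to -0.06 (Ndufs5, young vehicle).

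Among accessory subunits of the matrix arm, all 9 were lower in young vehicle and aged NAM/PN mice, 7 in aged vehicle and 8 in young NAM/PN mice. Their medians were -1.28, -1.25, -0.58 and -0.87. Ndufv3, a small subunit bound to the flavoprotein, fell most in young vehicle mice (-1.59 ± 0.19), and Ndufa7 fell least (-0.90 ± 0.20). In the distal membrane arm 9 of 10 genes were lower in young vehicle and aged NAM/PN mice and 8 of 10 in each of the others, with medians of -1.49, -1.15, -0.56 and -0.89 in young vehicle, aged NAM/PN, aged vehicle and young NAM/PN mice.

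Ndufb2, of this distal arm, had the lowest estimate of the family in 3 of the 4 comparisons. It stood at 267, 294 and 374 CPM (lowest, median and highest of 6) in young vehicle contralateral muscle and at 77.5, 109, 60.8, 69.4 and 91.4 CPM in injured muscles 1 to 5. The injured muscles thus held about 26.9% of the contralateral level (-1.89 ± 0.19, adjusted p = 6.78e-10). In aged NAM/PN mice the change of Ndufb2 was -1.91 ± 0.20 and in young NAM/PN mice -1.46 ± 0.23, while in aged vehicle mice it was -1.01 ± 0.22. Of the 50-base windows at its 3′ end 14.7% also occur in other transcripts. Ndufb4 changed by -1.68 ± 0.23 in young vehicle mice.

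Ndufb7, also of the distal arm, varied least between libraries of a group and changed by less than most. It stood at 186, 209 and 236 CPM (lowest, median and highest of 6) in young vehicle contralateral muscle and at 114, 111, 94.2, 116 and 110 CPM in injured muscles 1 to 5, a change of -0.95 ± 0.13 (adjusted p = 9.55e-08). Even this mild fall separated all libraries. In the proximal membrane arm 7 of 9 genes were lower in young vehicle and aged NAM/PN mice, 6 in aged vehicle and 5 in young NAM/PN mice. Ndufc1, a small membrane subunit, was the lowest of them in young vehicle (-1.65 ± 0.23) and aged NAM/PN mice (-1.67 ± 0.25), and Ndufc2 stood near 0 in aged vehicle mice (-0.14 ± 0.26, 95% interval -0.67 to 0.39). Others with small estimates were Ndufa8 (-0.27 ± 0.49) and Ndufa7 (-0.30 ± 0.23) in aged vehicle mice and Ndufb10 (-0.42 ± 0.19) and Ndufc2 (-0.48 ± 0.27) in young NAM/PN mice, none of them called there. Ndufa7 was called in aged NAM/PN mice with -0.68 ± 0.21.

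The 3 genes that were lower in no comparison by edgeR, without the axis in the fit, were Ndufa1, Ndufb3 and Ndufa4l2. The errors of Ndufa1 and Ndufb3 were wide. The SD of log2(CPM + 1) within groups was 1.36 for Ndufa1 and 0.98 for Ndufb3. After removal of the axis it was 0.30 and 0.36. Ndufa1 changed by -1.33 ± 0.67 in young vehicle mice (adjusted p = 0.091), and it stood at 30.9, 35.6 and 63.5 CPM (lowest, median and highest of 6) in contralateral muscle and at 17.3, 22.2, 7.89, 3.71 and 34.1 CPM in injured muscles 1 to 5. Its groups overlapped through injured muscle 5. Without the 3 libraries low on the axis the estimate of Ndufa1 in aged vehicle mice turned from -1.23 to 0.31. Ndufb3 changed by -0.80 ± 0.50 (adjusted p = 0.173), less than the family median of -1.33, and its estimates were smaller than the median in the other comparisons too. With the axis as a covariate Ndufb3 was lower in young vehicle mice (-0.85, adjusted p = 0.000684).

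Ndufa4 and its paralogue differed in their values. Ndufa4 changed by -1.47 ± 0.54 in young vehicle mice (adjusted p = 0.0214, and 0.0527 with the mouse as a block) and by -1.43 ± 0.59 in aged NAM/PN mice (adjusted p = 0.0382, and 0.275 with the block). With the axis as a covariate the edgeR adjusted p of Ndufa4 was 4.16e-07 in young vehicle and 6.43e-06 in aged NAM/PN mice. It was not called in aged vehicle (-0.55 ± 0.63) or young NAM/PN mice (-1.29 ± 0.66). Ndufa4l2 was a low transcript in all groups. It stood at 4.7, 7.2 and 8.42 CPM (lowest, median and highest of 6) in young vehicle contralateral muscle and at 5.62, 5.48, 5.13, 4.67 and 5.2 CPM in injured muscles. Its changes were -0.35 ± 0.27 (95% interval -0.90 to 0.19), -0.55 ± 0.32, -0.35 ± 0.31 and -0.18 ± 0.28 in young vehicle, aged vehicle, young NAM/PN and aged NAM/PN mice, none past the threshold. Whether Ndufa4 and Ndufa4l2 differed in their response was not tested.

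Ndufs5 was the outlying member. It had only 600 reads over all libraries and ranged from 0.545 to 8.25 CPM. In young vehicle mice it showed no detectable change (-0.06 ± 0.44, 95% interval -0.95 to 0.84), while in aged vehicle mice it was the lowest member (-1.66 ± 0.53, adjusted p = 0.0123). In aged vehicle contralateral muscle it stood at 2.92, 5.81 and 8.25 CPM (lowest, median and highest of 6) and in the injured muscles at 2.15, 2.33 and 0.998 CPM. The difference between the ages was -1.60 ± 0.68 (interaction, adjusted p = 0.446), so it was not shown. At its 3′ end 47.8% of the windows are shared, mostly with BC002163. How reads that fit both genes were counted is not known here, so its level is uncertain.

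The order of the 37 changes was much the same in 3 of the 4 comparisons. Across genes, the log2 fold changes of young vehicle mice had a Spearman rho of 0.81 with those of aged NAM/PN mice and of 0.80 with those of young NAM/PN mice, and the 2 NAM/PN comparisons had 0.85. With aged vehicle mice the values were 0.30 (young vehicle), 0.58 (young NAM/PN) and 0.62 (aged NAM/PN). No library is shared between these comparisons, but genes of one complex are not independent and share depth and the axis, so these are descriptions over 37 genes.

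Other parts of the mitochondrion were set beside the family, in young vehicle mice unless named. The mitochondrially encoded subunits of complex I fell further. Of 6 tested 5 were lower, with a median of -2.25, and mt-Nd5 stood at 4534 to 6364 CPM in contralateral and at 742 to 1548 CPM in injured muscle (-2.26 ± 0.22). mt-Nd1 changed by -2.24 ± 0.23, mt-Nd2 by -2.52 ± 0.29 mt-Nd4 by -2.08 ± 0.26 and mt-Nd3, at most 3.13 CPM, by -2.64 ± 0.72, and mt-Nd6, the one encoded on the other strand, was not called (-0.76 ± 0.34, adjusted p = 0.0596). In aged vehicle mice the median of the 6 was -1.33, in young NAM/PN mice -1.81 and in aged NAM/PN mice -2.33.

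Ndufab1, the acyl carrier protein that is also a complex I subunit, changed by -0.99 ± 0.17 in young vehicle and by -0.99 ± 0.18 in aged NAM/PN mice and was not called in the other 2 comparisons (-0.40 ± 0.19 and -0.23 ± 0.20). Of 17 assembly factors of complex I 11 were lower with a median of -0.85. Of these Tmem126b, a membrane arm factor, had the smallest p (-1.27 ± 0.13). Complex II had 3 of 4 genes lower (median -1.23, Sdha -1.33 ± 0.14), nuclear genes of complexes III to V 31 of 37 lower and 2 higher (median -1.13), and the tricarboxylic acid cycle 12 of 13 lower (median -1.41).

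In complexes III to V the muscle isoform Cox8b had the smallest p among lower genes (-2.21 ± 0.22), and Cox6a1, the isoform of non-muscle tissues, was higher (1.45). The mitochondrial ribosome fell less, with 46 of 75 genes lower and a median of -0.63. The median of the 25 mature myofibre genes was -1.78, with 23 lower. The median of the nuclear complex I genes, -1.33, thus lay between those of the mitochondrial ribosome and of the myofibre genes. These medians were not tested against each other. The fall of myofibre transcripts moved with that of the family in every injury comparison, with medians of -1.78, -1.40, -1.42 and -2.20 in young vehicle, aged vehicle, young NAM/PN and aged NAM/PN mice, and its part in the result was not tested.

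**Figure D3:**
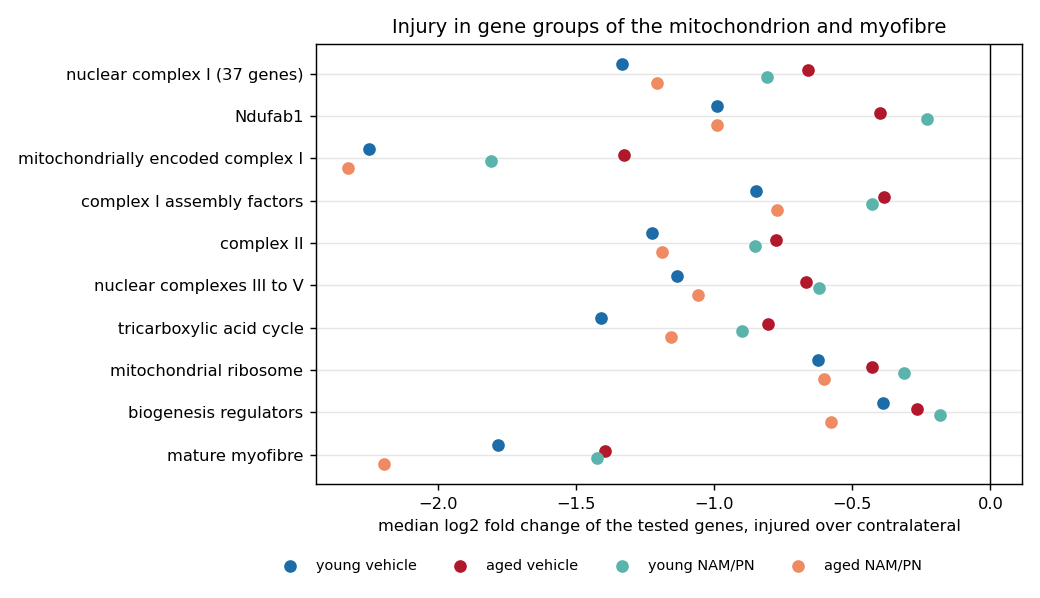
Median log2 fold change after injury (horizontal axis) of the tested genes in each of 10 groups of mitochondrial and myofibre genes, with 1 point for each of the 4 injury comparisons (Ndufab1 is a single gene). In young vehicle mice the 37 nuclear complex I genes have a median of -1.33, the mitochondrially encoded subunits of -2.25 and the mitochondrial ribosome of -0.63.

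Among the regulators of mitochondrial biogenesis 4 of 8 were lower in young vehicle mice and 0 higher. Ppargc1a, the coactivator of these genes, changed by -1.81 ± 0.32 (adjusted p = 1.43e-05), Esrra by -1.34 ± 0.39, Tfam by -0.71 ± 0.21 and Tfb2m by -1.61 ± 0.53. The factors Nrf1 (0.09 ± 0.17) and Gabpa (0.06 ± 0.25) and the coactivator Ppargc1b (0.21 ± 0.19) did not pass the test. In aged vehicle mice only Ppargc1a passed (-0.98 ± 0.38, adjusted p = 0.0386), and in young NAM/PN mice 0 of the 8 did. In aged NAM/PN mice Ppargc1a (-1.49 ± 0.35), Tfam (-0.98 ± 0.23) and Tfb2m (-1.67 ± 0.58) were lower and Nrf1 was higher (0.63 ± 0.18, adjusted p = 0.00322).

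The next comparison asked whether the family differed with age. In injured vehicle muscle the estimates were mostly higher in aged than in young mice, but no gene passed the test. Of the 37 genes 34 had an estimate above 0, the median was 0.38, against 0 genes called among all 12610 (0% higher, median 0.00192), and the lowest adjusted p was 0.245. At an unadjusted p under 0.05, 16 members were higher and 0 lower, against 3.69% and 2.62% of all genes. By DESeq2 1 member was higher (Ndufb11, 0.0634% of all genes), by voom with quality weights 7 (0.531%), and with the axis as a covariate 1 (Ndufv3, 0.0159%). The groups did not overlap for 11 members, all higher in aged mice, against 3.56% of all genes higher and 2.87% lower.

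Ndufb11, an X-linked subunit of the distal arm, stood at 148, 111 and 117 CPM in aged vehicle injured muscles 1 to 3 and at 76.7, 83.9, 57.5, 73.8 and 81.2 CPM in young ones. The groups did not overlap, and the difference was 0.75 ± 0.18 (edgeR adjusted p = 0.245). Of the 3′ windows of Ndufb11 16.7% also occur in other transcripts. Ndufv3 stood at 256, 192 and 235 CPM in aged and at 143, 151, 98.7, 98 and 144 CPM in young injured muscle, a difference of 0.84 ± 0.22 (adjusted p = 0.273). Ndufa12 stood at 203, 186 and 187 CPM against 96.9, 148, 104, 150 and 126 CPM (0.62 ± 0.19, adjusted p = 0.418). Of its 3′ windows 27.7% occur in another transcript, Gm15920. The estimates below 0 were those of Ndufs5, Ndufs3 and Ndufa4l2. Mature myofibre genes moved the same way, with 24 of 25 estimates above 0 and a median of 0.54, and the mt-Nd genes had a median of 0.79. The 9 fibro-adipogenic genes moved the opposite way, all with estimates below 0 (median -0.998), and summed to 4224 to 4940 CPM in aged and 7059 to 17733 CPM in young injured muscle, without overlap. All 5 adipocyte genes also had estimates below 0 (median -0.84). In none of these 4 lists did a gene pass the test, and their part in the result was not tested.

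In contralateral vehicle muscle the median was -0.18 for aged against young mice, and 30 of 37 estimates were below 0. By edgeR 0 members were called, against 0.571% of all genes higher and 0.531% lower, or 72 and 67 genes. These all-gene counts depended on single libraries, with 0 higher and 1 lower without aged vehicle contralateral muscle 6, and 5 and 3 without young vehicle contralateral muscle 3. They also changed with the axis. As a covariate it gave 143 higher and 142 lower. The fit without the 5 high libraries gave 289 and 87, and that without the 3 low ones 4 and 2. At an unadjusted p under 0.05, 6 members were lower and 1 higher (4.84% and 7.91% of all genes), and DESeq2 and voom each called 0. The smallest p were those of Ndufs4 (-0.42 ± 0.13, adjusted p = 0.129), an accessory subunit of the matrix arm, Ndufb4 (-0.61 ± 0.21, adjusted p = 0.177) and Ndufs1 (-0.37 ± 0.14, adjusted p = 0.24). Ndufs4 stood at 281, 322 and 354 CPM (lowest, median and highest of 6) in young and at 188, 253 and 286 CPM in aged muscle, so that the highest aged muscle lay above the lowest young one. Only for Ndufs1 did the groups not overlap, against 0.341% of all genes lower and 0.317% higher. Without the 5 libraries Ndufs4 was lower (-0.51, adjusted p = 0.0415). All 12 macrophage genes had estimates above 0 (median 1.55, 2 of them called higher), and so did 6 of the 7 regenerating fibre genes (median 2.34). The sums were raised mainly in aged muscles 3 and 6. Macrophage genes summed to 212, 172, 735, 205, 114 and 1566 CPM in aged muscles 1 to 6 and to 121 to 249 CPM in young ones. Regenerating fibre genes summed to 34, 43.1, 636, 64.6, 66.1 and 367 CPM and to 32.3 to 74.9 CPM. The part of these genes was not tested.

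Treatment with NAM/PN was compared with vehicle in each leg and age. In aged injured muscle the family was lower with NAM/PN in most estimates, 35 of 37 below 0 with a median of -0.45, or 73.3% of the vehicle level, against a median of 0.00232 over all genes. By edgeR 0 members and 0 of all genes were called (0%), with a lowest adjusted p of 0.125. At an unadjusted p under 0.05, 14 members were lower and 0 higher, against 5.8% and 1.59% of all genes. The result depended on the method, since DESeq2 called 7 members lower (0.991% of all genes), voom with quality weights 14 (5.02%), the fit with the axis as a covariate 4 (0.753%) and the fit without the 5 libraries 6 (2.05%). All of these calls were in 1 direction. No member was called with RLE factors, without the filter, with library sizes without mitochondrial genes, or with the compared groups alone. Nor was any called with a block by mouse or by title number, or without the 3 low libraries.

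Ndufb9, a distal arm subunit, stood at 190, 237, 201 and 253 CPM in aged NAM/PN injured muscles 1 to 4 and at 432, 303 and 330 CPM in aged vehicle injured muscles 1 to 3. The groups did not overlap, and the difference was -0.69 ± 0.18 (edgeR adjusted p = 0.125, and 0.0422 with the axis). Ndufv3 stood at 116, 148, 129 and 118 CPM against 256, 192 and 235 CPM (-0.83 ± 0.23, adjusted p = 0.147, and 0.0233 with the axis). Ndufa12 stood at 77.3, 116, 104 and 172 CPM against 203, 186 and 187 CPM (-0.71 ± 0.20, adjusted p = 0.147, and 0.0273 with the axis). For Ndufa12 the highest treated muscle was number 4, which is among the 5 libraries high on the axis. The groups did not overlap for 13 members that were lower (6.73% of all genes) and for 1, Ndufa4l2, that was higher (5.37%).

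Markers of other cell types moved with this comparison. The 25 mature myofibre genes summed to 152847, 139053 and 129684 CPM in aged vehicle injured muscles 1 to 3 and to 55858, 80019, 73262 and 119662 CPM in aged NAM/PN injured muscles 1 to 4. All 25 estimates were below 0, with a median of -0.78. The 9 fibro-adipogenic genes summed to 4224 to 4940 CPM and to 7220 to 10375 CPM, and the 12 macrophage genes to 2218 to 2860 CPM and to 2874 to 3303 CPM. The 5 erythrocyte genes summed to 284 to 581 CPM and to 159 to 343 CPM, with overlap. The 7 regenerating fibre genes, all with estimates above 0 (median 0.18), summed to 2978 to 3425 CPM and to 3685 to 4618 CPM, without overlap. All 5 adipocyte estimates were below 0 (median -0.65). In none of these 6 lists did a gene pass the edgeR test, and their part in the lower family was not tested. The comparison shares its 3 vehicle muscles with the comparison of ages in injured muscle, so the 2 sets of values are not independent.

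In young injured muscle the estimates with NAM/PN lay on the other side, 33 of 37 above 0 with a median of 0.26, and by edgeR 0 members were called (0% of all genes). At an unadjusted p under 0.05, 4 members were higher and 0 lower, against 1.62% and 1.13% of all genes, and DESeq2 and voom each called 0. Ndufs1 had the smallest p (0.44 ± 0.18) and stood at 128, 154 and 161 CPM in treated muscles and at 108, 129, 87.9, 103 and 114 CPM in vehicle muscles, so that the groups overlapped. It was followed by Ndufb10 (0.41 ± 0.18) and Ndufa10 (0.37 ± 0.18), each with an adjusted p of 1. The groups did not overlap for 3 members (Ndufa10, Ndufb11, Ndufb7), all higher, against 1.48% of all genes higher and 1.31% lower.

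In contralateral muscle 0 members were called at either age by edgeR, DESeq2 or voom (by edgeR 0% of all genes in young mice, and 0% higher and 0.00793% lower in aged mice). In aged mice the median was 0.04 and 0 members had an unadjusted p under 0.05, against 1.04% of all genes higher and 3.07% lower. Ndufs5 (-0.81 ± 0.41), Ndufa9 (0.17 ± 0.13) and Ndufb6 (0.22 ± 0.17) had the smallest p, and groups were apart for 0 members (0.0397% of all genes in each direction). In young mice the median was -0.22, 33 of 37 estimates were below 0 and 5 members had an unadjusted p under 0.05, all lower, against 2.46% of all genes lower and 2.41% higher. These were led by Ndufs4 (-0.36 ± 0.14), Ndufb4 (-0.57 ± 0.23) and Ndufb9 (-0.32 ± 0.14), with adjusted p of 0.995. Only Ndufa7, lower with NAM/PN, had groups that did not overlap, against 0.309% of all genes.

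**Figure D4:**
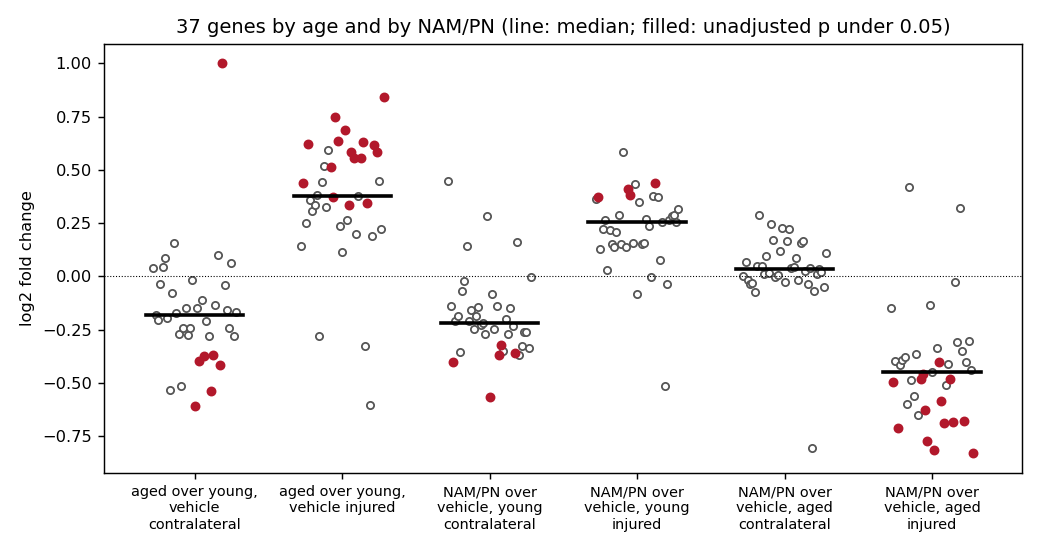
Log2 fold change of the 37 genes (points, vertical axis) by age and by NAM/PN treatment in contralateral and injured muscle (columns), with the median as a line and filled points at an unadjusted p under 0.05. In injured muscle the medians are 0.38 for aged against young vehicle mice, 0.26 for NAM/PN in young and -0.45 for NAM/PN in aged mice, and no gene passed the adjusted threshold by edgeR in any of the 6 comparisons.

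The differences between these effects were tested as interactions, and by edgeR 0 members passed in any of the 4, nor did any other gene except 0.0952% of all genes, higher, in the test of NAM/PN by injury in young mice. The effect of NAM/PN in injured muscle differed between aged and young mice by a median of -0.68 over the 37 genes, with 17 members below an unadjusted p of 0.05, all lower (6.15% of all genes). The lowest adjusted p was 0.199, shared by 5 members that included Ndufb11 (-1.01 ± 0.27) and Ndufb9 (-0.92 ± 0.25). DESeq2 called 9 members lower (0.714% of all genes), voom 17 (3.88%), the fit with the axis 0 and the fit without the 5 libraries 5 (0.777%). The effect of injury in aged mice differed between NAM/PN and vehicle by a median of -0.49, with 13 members below an unadjusted p of 0.05, all lower (4.49% of all genes, with 3.16% higher), led by Ndufb9 (-0.78 ± 0.23), Ndufv3 (-0.94 ± 0.29) and Ndufb2 (-0.89 ± 0.28, adjusted p of 0.344 to 0.414). There DESeq2 called 3 members lower (0.285%) and voom 7 (1.37%).

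The estimated effect of injury in vehicle mice differed between the ages by a median of 0.66. The estimated fall was thus smaller in aged mice, but by edgeR 0 members passed. At an unadjusted p under 0.05, 19 members had a positive difference (4.29% of all genes) and 1, Ndufs5, a negative one (5.41%). Ndufb11 (1.02 ± 0.24), Ndufs1 (0.92 ± 0.23) and Ndufb8 (0.96 ± 0.26) had the smallest p, each with an adjusted p of 0.272. DESeq2 called 7 members (0.143% of all genes) and voom 0. In young mice the effect of injury differed between NAM/PN and vehicle by a median of 0.43, with 10 members below an unadjusted p of 0.05, all higher (2.28%), led by Ndufs1 (0.71 ± 0.23, adjusted p = 0.72), Ndufs4 (0.62 ± 0.22) and Ndufb10 (0.64 ± 0.24). DESeq2 and voom called 0 members there.

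Apart from the groups, 4 members varied between libraries far more than the others and did so together. The SD of log2(CPM + 1) within groups was 1.36 for Ndufa1, 1.09 for Ndufa4, 0.98 for Ndufb3 and 0.87 for Ndufa8, while the other 33 ranged from 0.17 (Ndufb7) to 0.59 (Ndufs5). In aged vehicle contralateral muscles 1 to 6 Ndufa1 stood at 6.7, 39.6, 13.9, 2.12, 140 and 63.4 CPM, and Ndufa8 at 74.8, 197, 136, 41, 331 and 205 CPM. Muscle 4 was lowest and muscle 5 highest for both. Among aged NAM/PN contralateral muscles 1 to 6 Ndufa1 stood at 16.4, 45.5, 61.6, 0.924, 78.3 and 63.7 CPM and Ndufa4 at 37.4, 66.2, 106, 3.39, 110 and 93.6 CPM. Muscle 4 was again far below the rest.

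Over the 38 libraries the deviations from group means of these 4 genes had pairwise Pearson r of 0.94 to 0.98. Their r with the axis estimated from other genes was -0.98 for Ndufa1, -0.94 for Ndufa4, -0.93 for Ndufb3 and -0.90 for Ndufa8, and -0.90 for Ndufa6. Other members ran the opposite way, with 0.86 for Ndufs6, 0.84 for Ndufv1 and 0.80 for Ndufa5. Subunits of the same arm thus stood on both sides. In all, 14 of the 37 genes had an absolute r over 0.7, against 21.5% of all genes tested, and 5 had one over 0.9, against 3.08%. These correlations describe libraries that share their depth and scaling. After removal of the axis the SD of Ndufa1 was 0.30 and that of Ndufa4 0.37. In contralateral muscle 4 of the aged NAM/PN group Ndufv1 stood at 802 CPM, against 360 to 439 CPM in the other 5.

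**Figure D5:**
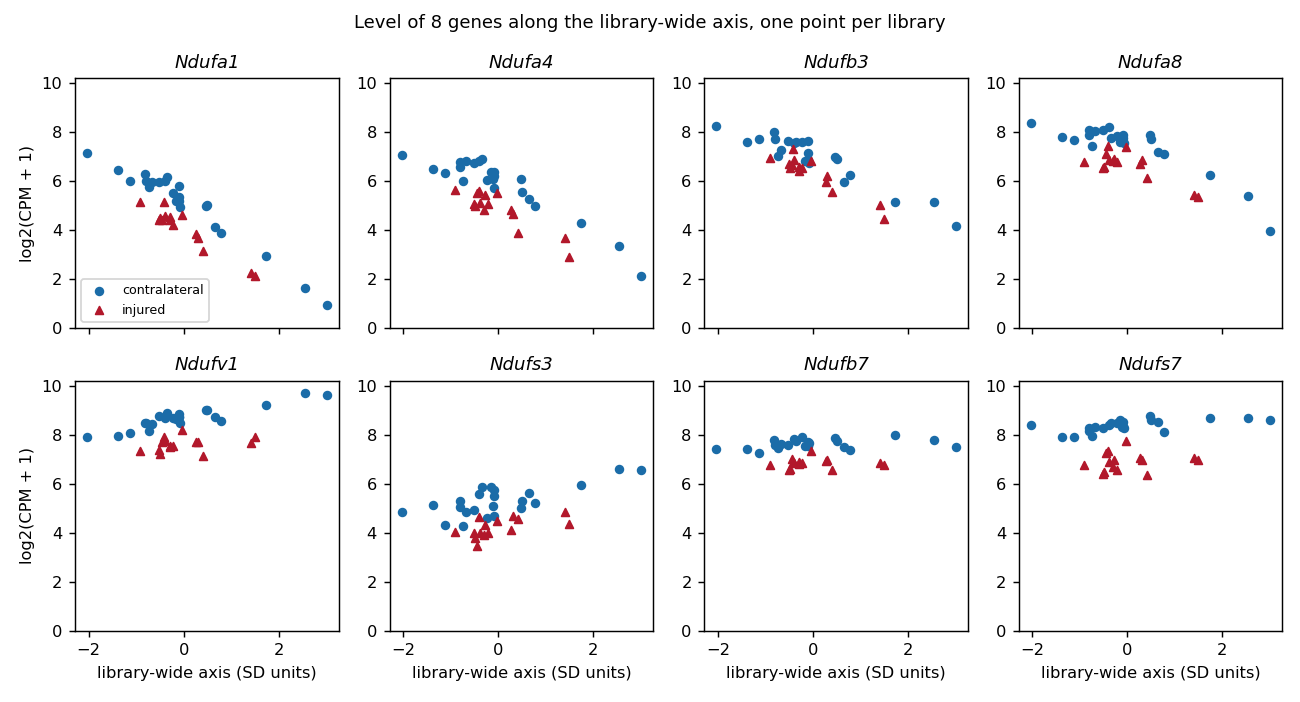
Level of 8 genes as log2(CPM + 1) (vertical axis) against the library-wide axis in SD units (horizontal axis), with 1 point per library (circles, contralateral; triangles, injured). Ndufa1, Ndufa4, Ndufb3 and Ndufa8 fall along the axis, and Ndufv1 and Ndufs3 rise. Ndufb7 and Ndufs7 follow it less closely (r of 0.31 and 0.50 for deviations from group means), with injured mostly below contralateral muscle.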

How the data were processed

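The authors sequenced gastrocnemius RNA as QuantSeq libraries, aligned reads to GRCm38 with STAR, counted them per gene with htseq-count (HTSeq 2.16.2 per the submitters' processing notes) and deposited 1 table of raw counts. Annotation release and strand setting were not given in the sources used here, so genes with copies or overlaps are uncertain. Symbols came from GENCODE M21 (27441 of 27554 identifiers matched, and the others held 0.00214% of counts).

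Counts were tested with edgeR 4.0.16 in R 4.3.3 (filterByExpr, TMM, all 38 libraries in 1 quasi-likelihood fit with a coefficient per group), with Benjamini-Hochberg adjustment over 12610 genes at 0.05. There were 14 contrasts, of which 4 were interactions. SE is the log2 fold change over the root of F, intervals are 95% with 30 degrees of freedom, and tests are two-sided. CPM are TMM-scaled. Each library is 1 muscle, and intervals do not cover error in counting without molecular identifiers.

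The members, lists and tests were chosen with earlier results of these data known, so no list is independent evidence of its direction. The naming rule gave, for injury, the core subunits, Ndufa4, Ndufa4l2 and the 3 largest and 3 smallest changes, and elsewhere the 3 smallest p. Ndufb7, Ndufa1, Ndufb3, Ndufa8 and the genes of the library axis were in part named after their values were seen. The values of 1 member are counted in all summaries but not reported here singly.

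Code was tested on simulated counts. Alternatives were RLE factors, no filter, library sizes without mitochondrial genes, DESeq2 1.42.0, voom with quality weights (limma 3.58.1), the compared groups alone, blocks by mouse or title number, 1 style of sample description and leaving out each library. The axis (svaseq, sva 3.50.0, 1 surrogate variable from genes outside the family) and the fits without libraries far along it were added after seeing the data. Descriptions pair 15 mice by both legs. Deviations of the legs correlated between -0.31 and 0.29, over 0.1 in 6 pairs, so the mouse was blocked in an alternative. All 77 pairs of libraries within groups differed beyond sampling noise (chi-square over its degrees of freedom at least 5.98), and each was counted once.

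Sharing at the 3′ end was counted as 50-base windows of the last 300 bases of protein-coding transcripts that occur in transcripts of other genes. Figures were drawn with matplotlib 3.10.9.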

Additional observations from a re-analysis of the deposited data

Results flagged for a closer look

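Among 15 quantities in the 6 groups of 4 to 6 libraries, 90 group values in all, 6 had a library far from the others by Dixon's test. Chance flags about 1 in 20 groups. In aged NAM/PN contralateral muscle 4 the library was apart for 3 core subunits, with Ndufs1 at 185 CPM (the nearest other at 242 CPM) and Ndufs3 at 94.5 CPM and Ndufv1 at 802 CPM (the nearest others at 48.5 and 439 CPM). In aged NAM/PN injured muscle 4 Ndufa1 stood at 3.35 CPM and Ndufa4 at 6.53 CPM, with the nearest others at 20.2 and 30.6 CPM. Both libraries are among the 5 high on the library-wide axis. In young vehicle injured muscle 3 Ndufb7 stood at 94.2 CPM, below the nearest other at 110 CPM.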

How the results depend on the processing

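The median change of the family kept its direction and moved by less than 0.195, the SD between libraries of a group, in every alternative, except that for NAM/PN in aged contralateral muscle, near 0, it ranged from -0.00798 to 0.11 when single libraries were left out. Counts of members lower after injury moved by over 1.5 times in aged vehicle mice when only the groups compared were fitted (13) or single libraries were left out (13 to 27), and in young NAM/PN mice with the replicate block by mouse (17). In injured muscle members higher with age were 1 by DESeq2, 7 by voom and 1 with the axis, and members lower with NAM/PN in aged mice were 7 by DESeq2, 14 by voom, 4 with the axis, 6 without the 5 libraries and 0 to 3 when single libraries were left out (3 without aged NAM/PN injured muscle 4). In contralateral muscle 1 member was lower with age without the 5 libraries and 0 to 1 when single libraries were left out (1 without aged vehicle contralateral muscle 2). Interaction calls were 3 (DESeq2), 7 (voom) and 1 (without the 5 libraries) for NAM/PN by leg in aged mice, 9, 17 and 5 for NAM/PN by age, and 7 by DESeq2 for age by leg. The cause of these differences was not tested. Ndufs5 in young vehicle mice changed sign, at 0.0280 with RLE factors, 0.0264 by DESeq2, 0.0881 by voom, 0.13 with the block by mouse and -0.28 to 0.14 when single libraries were left out. Ndufa8 in aged vehicle mice ranged from -0.48 to 0.0516 likewise, and Ndufa4l2 reached 0.0735 in young NAM/PN mice with the block and 0.0539 in aged NAM/PN mice by voom. Without the 3 libraries low on the axis no count moved by over 1.5 times, but in aged vehicle mice Ndufa1 (0.31), Ndufa4 (0.33), Ndufa8 (0.29) and Ndufc2 (0.0370) changed sign. None of these was called. The replicate block by title number changed no count by over 1.5 times. With young vehicle libraries of 1 description style, 0 members were called for age in vehicle mice or for NAM/PN in young mice. The medians for age were then 0.32 in injured and -0.23 in contralateral muscle. Those for NAM/PN in young mice were 0.34 and -0.23. Low counts limit Ndufs5 and Ndufa4l2, with 600 and 1212 reads in all.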
